A study of Mus musculus with 6 samples.

Results

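The 9 genes described here, Drd1, Tac1, Pdyn, Drd2, Adora2a, Penk, Ppp1r1b, Rgs9 and Pde10a, mark the projection neurons of the striatum, and they were followed in bulk RNA of the prefrontal cortex (PFC). They were chosen by name from the 54429 gene symbols counted, with earlier results of these data known. The study had listed 8 of the 9 as changed in these same libraries. All 9 were among the 20409 genes with enough counts to test. There were 6 libraries at 6 months of age, 2 in each of 3 groups. For WT + vehicle mice the labels named a C57BL/6 x C3H background and no transgene, and a check of these labels is given below. Tau + vehicle mice were of the PS19 line and carried a human tau transgene with the P301S mutation, and Tau + UNC0642 mice were of the same line and received UNC0642, an inhibitor of the histone methyltransferases EHMT1 and EHMT2, which write the repressive H3K9me2 mark. UNC0642 was given by daily intraperitoneal injection over a short course, and the other mice had vehicle. In the PS19 line the transgene is driven by the mouse prion protein promoter, so it is not limited to the neurons that these genes mark. The study describes the replicates of a group as biological, and the libraries held 17005664 to 28972176 counts.

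Striatal projection neurons are GABAergic and fall into a pair of populations. Neurons of the direct pathway carry the D1 dopamine receptor and release substance P and dynorphin, whereas neurons of the indirect pathway carry the D2 dopamine receptor and an adenosine receptor and release enkephalin. Both populations share a signalling chain in which receptors raise or lower cAMP and a phosphoprotein relays the signal. The PFC holds no striatal projection neurons, but subsets of its own projection neurons and interneurons make several of these transcripts, and the striatum lies below it. In bulk tissue, fewer cells of a type and less RNA per cell cannot be told apart.

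In the Tau + vehicle group 8 of the 9 genes were called higher than in the WT + vehicle group, where 3.72% of all genes tested were, and 8 of 9 were called lower in UNC0642-treated than in untreated Tau mice, where 3.95% of all were. None of these calls passed adjustment for the number of genes. For 6 of the 9 genes, Adora2a, Drd2, Rgs9, Penk, Ppp1r1b and Pde10a, the Tau libraries differed from each other by more than the Tau and WT groups did. Tau replicate 2 had the highest level of the 6 libraries for 9 of 9 genes, and without it 1 gene, Tac1, was still called higher in Tau mice and 1 gene, Penk, was still called lower after UNC0642.

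The genes lie on different chromosomes, apart from Ppp1r1b and Rgs9. In GRCm38 (GENCODE M21) the direct pathway genes are Drd1 at chr13:54051183-54055705 on the minus strand, Tac1 at chr6:7554879-7565834 on the plus strand and Pdyn at chr2:129686565-129699844 on the minus strand. The indirect pathway genes are Drd2 at chr9:49340627-49408177 and Adora2a at chr10:75316877-75334784, both on the plus strand, and Penk at chr4:4133531-4138819 on the minus strand. The shared genes are Ppp1r1b at chr11:98348404-98357796 and Pde10a at chr17:8525372-8986648, both on the plus strand, and Rgs9 at chr11:109225355-109298129 on the minus strand. All 9 are protein coding, and counts were summed over their exons.

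The promoters of these genes were searched for letters bound by cAMP-responsive and general factors. The RefSeq promoter table (GRCm38.p6) held 6 of the 9 genes, with 250 bases before the start of transcription, and both strands were searched. The sequences below give 1 gene of each pathway with its dopamine receptor and the neuropeptide gene that held a cAMP response element, in gene orientation and only as far as they lie outside the annotated gene. Capitals mark motif matches. Drd1 is shown from chr13:54055706-54055908 (minus strand), Drd2 from chr9:49340153-49340402 (plus strand) and Tac1 from chr6:7554811-7554878 (plus strand).
Drd1: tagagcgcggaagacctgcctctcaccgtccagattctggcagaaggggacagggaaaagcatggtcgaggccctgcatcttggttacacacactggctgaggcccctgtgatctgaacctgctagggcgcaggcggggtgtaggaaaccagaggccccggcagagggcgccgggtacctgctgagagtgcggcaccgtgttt
Drd2: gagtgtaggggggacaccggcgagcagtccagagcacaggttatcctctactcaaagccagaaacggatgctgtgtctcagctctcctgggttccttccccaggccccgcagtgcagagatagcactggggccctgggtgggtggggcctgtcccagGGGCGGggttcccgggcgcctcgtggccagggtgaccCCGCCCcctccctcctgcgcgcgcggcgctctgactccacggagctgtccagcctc
Tac1: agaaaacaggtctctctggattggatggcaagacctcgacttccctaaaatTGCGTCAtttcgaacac
The enkephalin-type cAMP response element TGCGTCA was found in 1 of the 6 promoters, that of Tac1, 193 to 199 bases before the start, and in 1.75% of all 32851 promoter windows. Its reverse complement contains TGACG, a shorter core of the element, which was found in 1 of 6 and in 17.8% of all. The full palindrome TGACGTCA was in 0 of 6 and in 1.55% of all. The GC box GGGCGG was in 4 of 6, among them Drd2 with matches 88 to 93 bases before the start on the same strand and 51 to 56 bases before it on the opposite strand, and in 32.7% of all. The TATA box TATAAA was in 1 of 6, Rgs9, and in 12.4% of all. Where the table gave a gene more than 1 window, the one nearest the annotated start of the gene was used, and for Drd1 it held no motif searched for. A further Drd1 window, inside the annotated gene, held a GC box 128 to 133 bases before its start, and it is not in the count of 4. The Pde10a window, which is in that count, also lay inside its annotated gene, with its start 276373 bases from the annotated one.

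Checks of the labels came before the comparisons. Prnp, the gene whose promoter drives the transgene, was at 873 CPM (counts scaled to library size) in WT replicate 2, and the libraries of transgenic mice ranged from 1470 to 1694 CPM, and the library labelled WT replicate 1 had 1652 CPM. On this measure that library goes against its label, so the WT libraries are called WT-labelled below and counts of calls against them are also given without it. Xist was at 191 to 317 CPM in both Tau libraries and the library labelled WT replicate 2, and at most at 0.197 CPM in the others, where the Y-linked gene Ddx3y was at 95.0 to 101 CPM. UNC0642 treatment and this sex-linked difference therefore cannot be told apart in the comparison with untreated Tau mice. Cortical projection neuron markers were strong in every library, with 15 genes summing to 1742 to 1986 CPM. Of the defining genes of striatal cholinergic interneurons, Nkx2-1 had no count in any library, which allows up to 0.107 to 0.178 CPM (3 counts), and Chat was at 0.215 to 0.474 CPM. Slc5a7, from the same list, was at 0.829 to 3.21 CPM and highest in Tau replicate 2, and its calls are given at the end.

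The first comparison asked how the genes differed between Tau and WT-labelled mice. Among the direct pathway genes, Drd1, which encodes the D1 dopamine receptor, was at 19.6 and 15.9 CPM in the WT-labelled libraries (replicates 1 and 2 here and throughout), at 23.0 and 36.9 CPM in the Tau libraries, and at 19.1 and 21.9 CPM in the UNC0642 libraries. Both Tau libraries were above all others, and Tau replicate 2 stood 1.61-fold above Tau replicate 1. Tac1, the precursor gene of substance P, was at 12.5 and 13.7 CPM in WT-labelled, 18.9 and 26.8 CPM in Tau and 13.1 and 18.0 CPM in UNC0642 libraries. The Tau group overlapped neither of the other groups. Pdyn, the precursor gene of dynorphin, was at 19.9 and 25.3 CPM in WT-labelled, 25.5 and 28.5 CPM in Tau and 20.4 and 20.8 CPM in UNC0642 libraries. The lower Tau library of Pdyn was level with the higher WT-labelled one, and the UNC0642 libraries were almost equal.

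The indirect pathway genes had the widest gap between the Tau libraries. Drd2, which encodes the D2 dopamine receptor, was at 1.34 and 1.25 CPM in WT-labelled, 1.5 and 5.10 CPM in Tau and 0.947 and 1.46 CPM in UNC0642 libraries. These levels rest on 16 to 89 counts per library, and Tau replicate 1 was close to the WT-labelled and UNC0642 libraries. Adora2a, an adenosine receptor gene that defines the indirect pathway, was at 1.58 and 1.41 CPM in WT-labelled, 1.57 and 7.33 CPM in Tau and 1.18 and 0.970 CPM in UNC0642 libraries, from 20 to 128 counts. Tau replicate 1 lay within the range of the WT-labelled libraries, whereas Tau replicate 2 was 4.66-fold above it. Penk, the precursor gene of enkephalin, was at 28.9 and 20.4 CPM in WT-labelled, 25.4 and 60.1 CPM in Tau and 16.3 and 19.1 CPM in UNC0642 libraries. Tau replicate 1 again lay between the WT-labelled libraries, and both UNC0642 libraries were below every other library.

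Of the genes shared by both pathways, Ppp1r1b, which encodes the phosphoprotein DARPP-32 that relays dopamine signals, was at 29.0 and 24.7 CPM in WT-labelled, 27.8 and 54.9 CPM in Tau and 28.8 and 24.4 CPM in UNC0642 libraries. Rgs9, whose product ends G protein signalling, was at 7.65 and 4.30 CPM in WT-labelled, 6.61 and 16.7 CPM in Tau and 5.62 and 6.84 CPM in UNC0642 libraries. For both genes Tau replicate 1 lay within the range of the WT-labelled libraries. Pde10a, a phosphodiesterase that degrades cAMP and cGMP, was at 79.3 and 79.6 CPM in WT-labelled, 92.7 and 143.9 CPM in Tau and 84.5 and 86.9 CPM in UNC0642 libraries. Here all 3 groups were apart, with the UNC0642 libraries between the other groups.

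**Figure D1:**
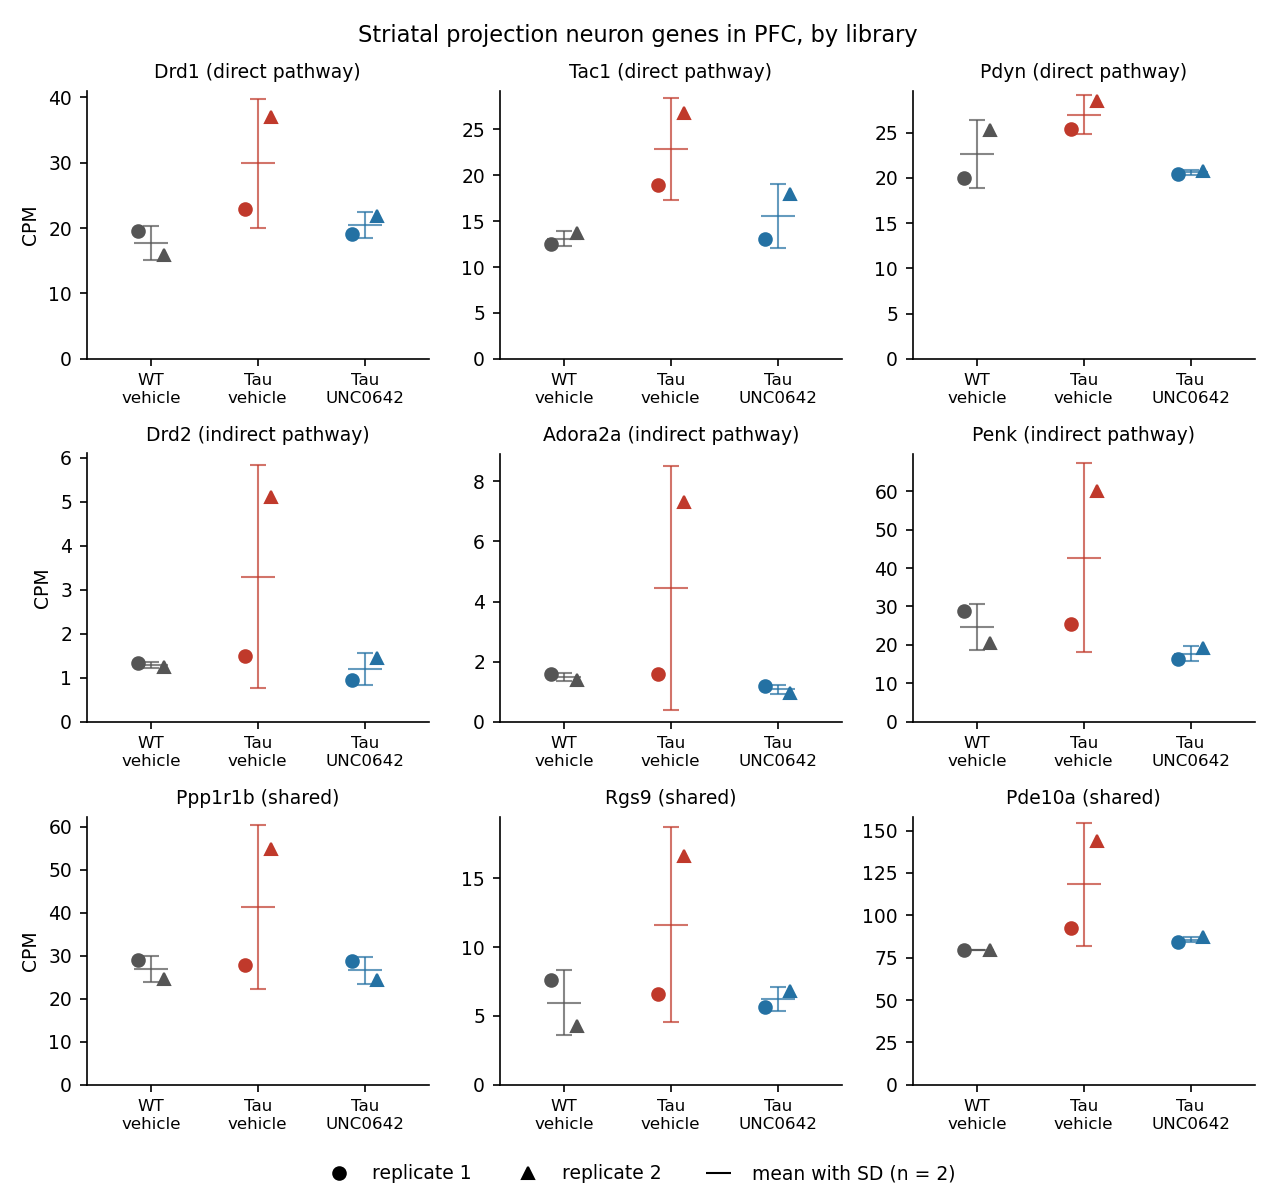
Levels of the 9 genes in CPM (vertical axes, from 0) in each library of the 3 groups, with circles for replicate 1, triangles for replicate 2 and bars for the mean and SD of 2 libraries. Tau replicate 2 is the highest point in each panel, and for Adora2a, Penk, Ppp1r1b and Rgs9 Tau replicate 1 lies within the range of the WT-labelled libraries.

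Per kilobase of exon, the WT-labelled libraries ordered the genes from Penk at 15.1 ± 3.7 CPM per kb (SD, n = 2) through Ppp1r1b at 9.17 ± 1.0, Pdyn at 7.83 ± 1.3, Pde10a at 6.19 ± 0.018, Drd1 at 4.88 ± 0.72, Tac1 at 3.86 ± 0.24 and Rgs9 at 0.935 ± 0.37 to Drd2 at 0.508 ± 0.025 and Adora2a at 0.487 ± 0.039. The libraries of Ppp1r1b and Pdyn overlapped, as did those of Drd2 and Adora2a, so neither pair can be ordered. The receptors of the indirect pathway were thus near the bottom of this length-scaled range and its peptide Penk at the top.

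With all libraries in the edgeR quasi-likelihood fit, genes differing 1.2-fold or more with an unadjusted p under 0.05 were called, which is the threshold of the study. By this rule 8 of the 9 genes were higher in Tau than in WT-labelled mice and 0 were lower, against 3.72% (759) and 6.1% (1244) of all genes tested. With library size in place of the TMM scaling 7 of the 9 were called higher, and over all genes the split was 415 higher (2.03%) and 1742 lower. The median log2 fold change of the 9 genes was 0.78, and that of all genes was -0.0001. The study had itself listed 8 of the 9 genes, all but Pdyn, as changed in these same libraries, so this count is not independent evidence of a direction. The log2 fold changes were 1.54 (standard error, SE, 0.58, adjusted p = 0.346) for Adora2a and 1.31 (SE 0.52, adjusted p = 0.366) for Drd2 in the quasi-likelihood fit of edgeR with Benjamini-Hochberg adjustment over all genes. They were 0.94 (SE 0.39, adjusted p = 0.375) for Rgs9, 0.79 (SE 0.19, adjusted p = 0.201) for Tac1, 0.78 (SE 0.32, adjusted p = 0.371) for Penk and 0.75 (SE 0.20, adjusted p = 0.244) for Drd1. The smallest among those called were Ppp1r1b at 0.61 (SE 0.25, adjusted p = 0.371) and Pde10a at 0.57 (SE 0.16, adjusted p = 0.257), and Pdyn at 0.25 (SE 0.13, adjusted p = 0.469) was not called. The genes with the largest folds, Adora2a and Drd2, also had the largest errors, whereas Tac1, Drd1 and Pde10a had the smallest p-values. After adjustment 0 of 9 in edgeR were under 0.05, and over all genes 32 were. At the unadjusted threshold the DESeq2 Wald test called 5 members higher, against 2.83% of all genes, and limma-voom 3, against 3.73%.

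Without Tau replicate 2, 1 of the 9 genes was called higher, Tac1 with a log2 fold change of 0.53 (SE 0.20, adjusted p = 0.443 in edgeR), against 3.08% of all genes. The median fell to 0.17, with Drd1 at 0.37 (SE 0.17), Pde10a at 0.22 (SE 0.096), Adora2a at 0.077 (SE 0.44) and Penk at 0.044 (SE 0.20). Without the library labelled WT replicate 1, 6 genes were called higher with a median of 0.90, against 4.47% of all genes, and Drd2 and Adora2a were no longer called. Without the library labelled WT replicate 2, 4 genes were called, Drd1, Tac1, Pdyn and Pde10a, against 4.99% of all genes.

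The second comparison asked what UNC0642 treatment did to these genes in Tau mice, and it shares the Tau libraries with the first. In the edgeR fit 8 of the 9 genes were called lower after UNC0642 and 0 higher, against 3.95% and 3.73% of all genes tested, with a median log2 fold change of -0.63 for the members and -0.0023 for all genes. The study had listed the members other than Pdyn as lowered too, in these same libraries, so this count is no more independent than the first. Adora2a had the largest difference, with a log2 fold change of -2.01 (SE 0.62, adjusted p = 0.429), followed by Drd2 at -1.40 (SE 0.54, adjusted p = 0.507) and Penk at -1.25 (SE 0.33, adjusted p = 0.388). The direct pathway genes were lower by smaller steps, Tac1 by a log2 fold change of -0.54 (SE 0.19, adjusted p = 0.477), Drd1 of -0.53 (SE 0.20, adjusted p = 0.499) and Pdyn of -0.39 (SE 0.14, adjusted p = 0.471). Among the shared genes, Ppp1r1b was at -0.63 (SE 0.25, adjusted p = 0.517) and Pde10a at -0.46 (SE 0.16, adjusted p = 0.467), and Rgs9 at -0.87 (SE 0.39, adjusted p = 0.564) narrowly missed the call. After adjustment 0 of 9 in edgeR were under 0.05, and over all genes 4 were. At the unadjusted threshold the DESeq2 Wald test called 7 members lower, against 2.75% of all genes, and limma-voom 4, against 3.6%.

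Without Tau replicate 2, 1 of the 9 genes was called lower after UNC0642, Penk with a log2 fold change of -0.52 (SE 0.20, adjusted p = 0.471 in edgeR), against 4.17% of all genes, and the median of the members was -0.28. Without the library labelled WT replicate 1, which enters this comparison only through the shared estimate of the spread, 9 of 9 were called, against 4.03% of all genes. Without UNC0642 replicate 1 the count was 3, with Adora2a, Penk and Ppp1r1b, against 3.51% of all genes, and without UNC0642 replicate 2 it was 4, with Drd1, Tac1, Drd2 and Penk, against 3.05%. Penk was thus called in each of these fits. With a term for sex-linked expression, which is estimated from the WT-labelled libraries alone because the Tau and UNC0642 libraries do not vary in it, 3 genes were called, Drd1, Penk and Rgs9, against 4% of all genes. That term also takes up every other difference between the WT-labelled libraries, of which replicate 1 goes against its label on Prnp. The count is therefore not one adjusted for sex alone.

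**Figure D2:**
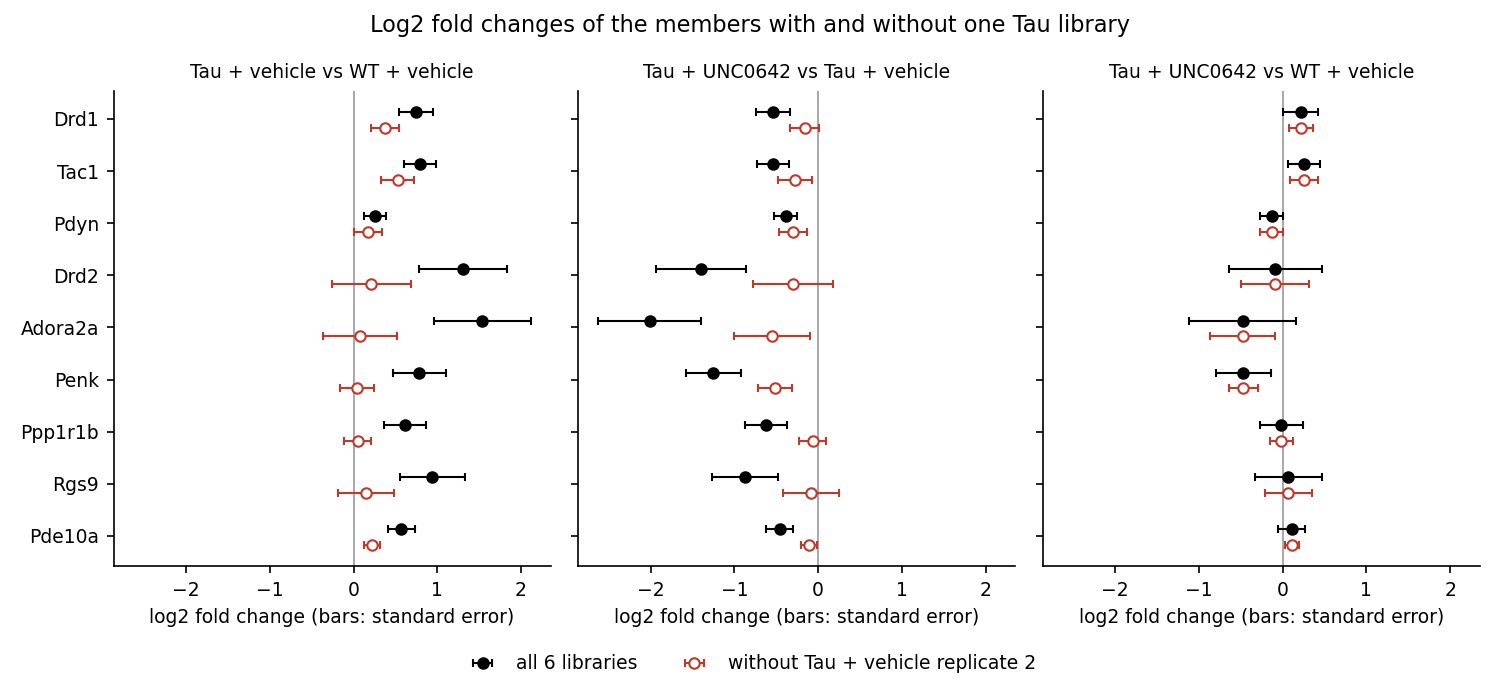
Log2 fold changes of the 9 genes (horizontal axes) in the 3 comparisons, with bars for the standard error, from the fit of all 6 libraries (filled) and from the fit without Tau + vehicle replicate 2 (open). In the first comparison the values without that library lie between 0.04 and 0.53, and Adora2a moves from 1.54 to 0.077.

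The third comparison set UNC0642-treated Tau mice against WT-labelled mice. In edgeR 0 of 9 genes were called in either direction, against 3.77% (770) of all genes higher and 5.69% (1162) lower, and with library size in place of TMM the split over all genes was 536 and 1479. Of the members 0 had an unadjusted p under 0.05. DESeq2 and limma-voom also called 0, and the lowest adjusted p in edgeR was 0.60, for Penk. The log2 fold changes ran from -0.48 (SE 0.64) for Adora2a and -0.47 (SE 0.33) for Penk to 0.21 (SE 0.21) for Drd1 and 0.25 (SE 0.19) for Tac1. Drd2 was at -0.089 (SE 0.56), and this receptor and Adora2a had 16 to 40 counts per library. Tau replicate 2 enters this comparison only through the shared estimate of the spread, and without it the SE was 0.41 for Drd2 and 0.39 for Adora2a. In that fit 1 of 9 genes was called lower than in WT-labelled mice, against 5.69% of all genes, Penk with a log2 fold change of -0.47 and an SE of 0.17 in place of 0.33 (adjusted p = 0.321 in edgeR). With WT replicate 1 left out, 0 of 9 were called, against 4.52% of all genes higher and 4.74% lower, and the median was 0.10 in place of -0.015.

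The differences between the libraries of each group can be set beside these values. On the log2 scale, Tau replicate 2 was above Tau replicate 1 by 2.16 for Adora2a, 1.71 for Drd2, 1.32 for Rgs9, 1.24 for Penk and 0.98 for Ppp1r1b. The step was 0.68 for Drd1, 0.63 for Pde10a, 0.50 for Tac1 and 0.16 for Pdyn. Between the WT-labelled libraries the same difference ran from -0.82 for Rgs9 to 0.34 for Pdyn, and between the UNC0642 libraries from -0.27 for Adora2a to 0.58 for Drd2. Tau replicate 2 was the highest of the 6 libraries for 9 of 9 members and for 16.5% of all genes tested. The study had listed 8 of the members as raised in Tau mice from these same libraries. A Tau library was therefore more likely to be highest for them, and the share over all genes is not a like baseline. For Pdyn, the member with the smallest step, the Tau libraries were 1.12-fold apart.

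**Figure D3:**
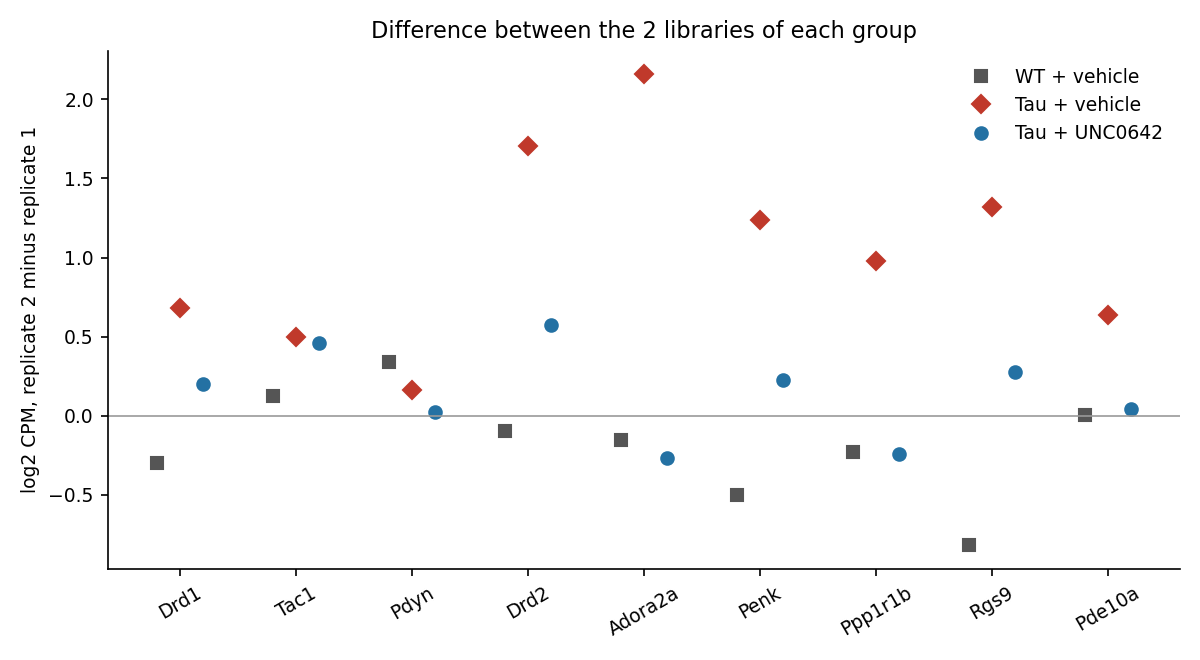
Difference in log2 CPM between replicate 2 and replicate 1 (vertical axis) of each group for the 9 genes. The Tau points run from 0.16 for Pdyn to 2.16 for Adora2a, and the points of the other groups lie between -0.82 and 0.58.

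The pathways can be compared by how they shift between libraries. The mean log2 CPM of each pathway's 3 genes, set relative to the mean over the 6 libraries, was 1.61 for the indirect, 0.90 for the shared and 0.58 for the direct genes in Tau replicate 2. In summed level the indirect genes were below the direct genes in that library, at 72.5 and 92.2 CPM. On the relative scale the indirect genes stood 1.03 above the direct genes there. In Tau replicate 1 the same difference was -0.23, in the WT-labelled libraries 0.18 and -0.13, and in the UNC0642 libraries -0.40 and -0.45. These differences sum to 0 over the libraries because each gene was centred on them, so the high value of Tau replicate 2 lowers the others, and only the gaps between libraries can be read.

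Other genes of striatal projection neurons were taken from a fixed list of 33, of which 32 were counted and 30 tested. Isl1 and Six3 had too few counts to test. Six3 had 12 counts in Tau replicate 2 and 0 to 2 in each other library, and Isl1 had 10 and 0 to 6. The study had itself listed 6 of the 33 from these libraries. In edgeR 9 of 30 were called higher in Tau than in WT-labelled mice and 0 lower, against 3.72% and 6.1% of all genes. The median log2 fold change was 0.22. After UNC0642 10 were called lower and 0 higher, against 3.95% and 3.73% of all genes, with a median of -0.23. Against WT-labelled mice, UNC0642-treated mice had 1 higher, the muscarinic receptor gene Chrm4, and 2 lower, Rxrg and Sp9. Of all genes 3.77% were higher and 5.69% lower there. The same shares stand beside the counts of every list below in the fit of all libraries. With WT replicate 1 left out, Chrm4 was still called higher, and the 2 called lower were Gng7 and Tmem158, with Rxrg at -0.57 (SE 0.27) and Sp9 at -0.35 (SE 0.55) in place of -0.59 (SE 0.22) and -1.53 (SE 0.58), and without Tau replicate 2 4 were called lower, Rxrg, Sp9, Gpr6 and Actn2. Tau replicate 2 was the highest library for 15 of the 30, and without it 3 were called higher in Tau mice (Bcl11b, Gng7 and Lrrc10b) and 3 lower after UNC0642 (Bcl11b, Gng7 and Rasd2). Without the library labelled WT replicate 1 the counts were 3 (Bcl11b, Pde1b and Lrrc10b) and 12.

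These genes fell into different patterns over the libraries. Sh3rf2 had 66 counts in Tau replicate 2 and 2 to 14 counts in each other library. Tau replicate 2 stood alone for this gene, and its log2 fold change in Tau mice was 2.22 (SE 0.89). Bcl11b, a transcription factor of striatal neurons and of deep-layer cortical neurons, was at 84.4 and 88.1 CPM in WT-labelled, 120.1 and 103.3 CPM in Tau and 89.3 and 89.1 CPM in UNC0642 libraries. Gng7, a G protein subunit gene, was at 28.8 and 36.2 CPM in WT-labelled, 42.9 and 42.7 CPM in Tau and 28.9 and 25.0 CPM in UNC0642 libraries. Unlike the members, Bcl11b and Gng7 had no excess in Tau replicate 2 over Tau replicate 1. Their log2 fold changes were 0.37 (SE 0.090, adjusted p = 0.198 in edgeR) and 0.40 (SE 0.13, adjusted p = 0.299) in Tau mice, and -0.33 (SE 0.090) and -0.67 (SE 0.13, adjusted p = 0.215 in edgeR) after UNC0642.

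The other genes called in this list are given by their fold changes. In Tau relative to WT-labelled mice the log2 fold changes were 1.61 (SE 0.42) for Lrrc10b, 0.51 (SE 0.20) for the sodium channel subunit gene Scn4b, 0.47 (SE 0.14) for Strip2, 0.27 (SE 0.093) for the phosphodiesterase gene Pde1b and 0.27 (SE 0.11) for Chrm4. After UNC0642 they were -2.26 (SE 0.60) for Gpr6, an orphan receptor of the indirect pathway, -0.75 (SE 0.22) for the retinoid receptor gene Rxrg and -0.48 (SE 0.11) for Rasd2, which encodes a small GTPase of the striatum. Gpr6 was at 0.946 and 1.09 CPM in WT-labelled, 1.04 and 3.21 CPM in Tau and 0.355 and 0.485 CPM in UNC0642 libraries, from 6 to 56 counts. Between the Tau libraries it had the pattern of Drd2 and Adora2a. Unlike for Drd2, both UNC0642 libraries of Gpr6 were below every other library. The receptors for dopamine, opioids, tachykinins and adenosine outside the members formed a list of their own. Of 13 listed, 10 were tested and 0 were called in any of the 3 comparisons in edgeR, with 2, 0 and 0 at an unadjusted p under 0.05 with no limit on the fold, and Tau replicate 2 was the highest library for 3. In Tau mice 1 was called higher without WT replicate 1, and 1 higher and 2 lower without Tau replicate 2.

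Oligodendrocyte markers shared the peak of the members in Tau replicate 2 but differed from them elsewhere. Between the WT-labelled libraries their centred mean log2 CPM went from 0.26 to -0.73, and that of the members from -0.14 to -0.32. With Tau replicate 2 left out, the log2 changes of the members had medians of 0.17 and -0.28 in the first and second comparison. For the oligodendrocyte markers these medians were -0.14 and 0.12. All 10 listed genes had their highest level in Tau replicate 2, and their summed level was 3093 and 1526 CPM in the WT-labelled libraries, 2138 and 5794 CPM in the Tau libraries and 2241 and 2392 CPM in the UNC0642 libraries. In edgeR 4 of 10 were called higher in Tau than in WT-labelled mice, 2 were called lower after treatment, and without Tau replicate 2 these counts were 0 and 0. They were 10, with a median log2 fold change of 1.33, and 4 without the library labelled WT replicate 1. The study had listed 6 of these 10 with values from the same libraries, and a further 1 stood in its classification of genes raised in Tau mice and reversed by treatment. Their part in the members' values was not tested. Cortical projection neuron markers had their highest level in Tau replicate 2 for 1 of 15 genes, with 1 called higher in Tau than in WT-labelled mice and 1 lower after treatment, and without the library labelled WT replicate 1 there were 1 higher and 1 lower in Tau mice and 2 lower after treatment, and without Tau replicate 2 there were 2, 0 and 2. Cortical interneuron markers summed to 967 to 1143 CPM over the 6 libraries, with 2 of 10 highest in Tau replicate 2, 2 higher and 1 lower in Tau mice, and 2 lower after UNC0642, and without the library labelled WT replicate 1 these counts were 2, 0 and 2, and without Tau replicate 2 they were 2, 1 and 3.

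**Figure D4:**
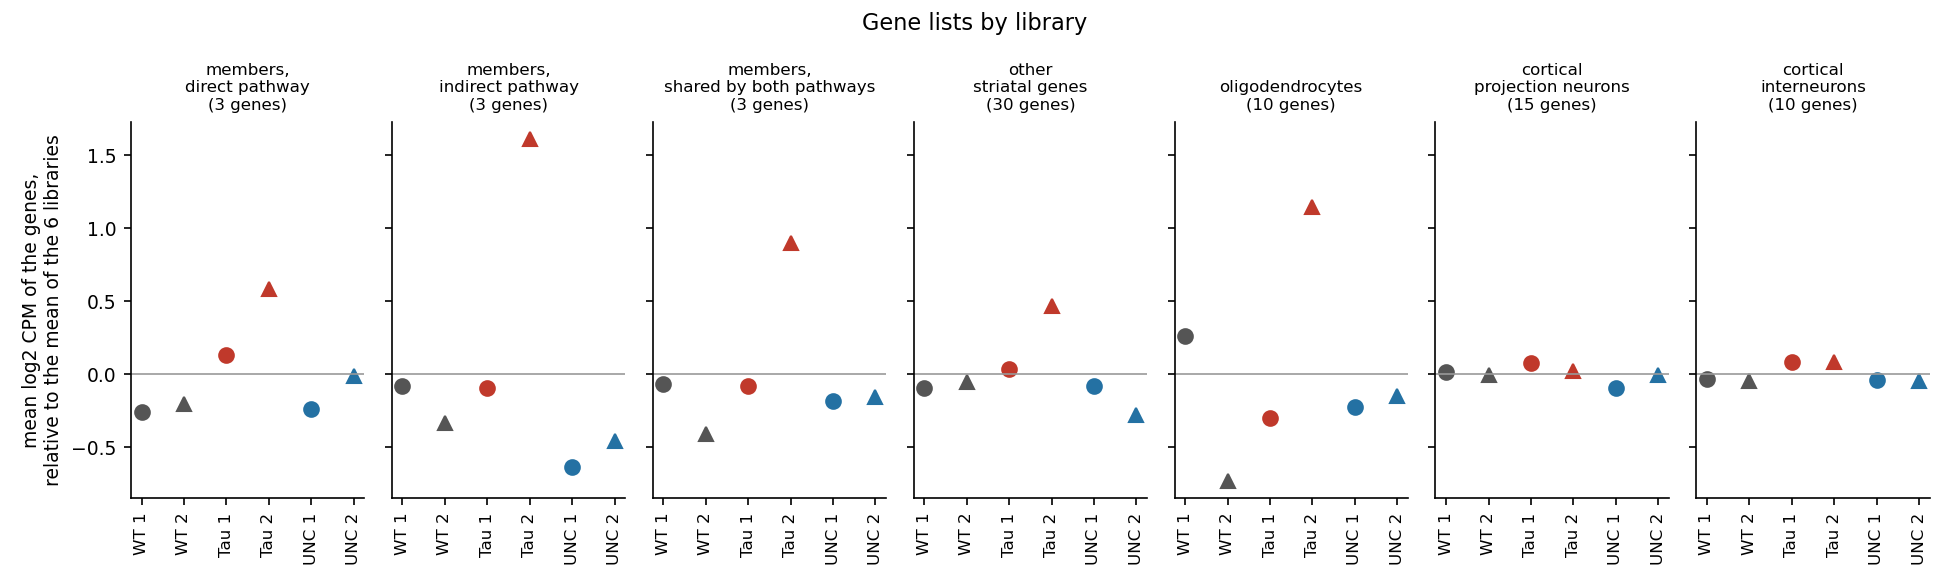
Mean log2 CPM of each gene list in each library, relative to the mean of the 6 libraries (vertical axis), with circles for replicate 1, triangles for replicate 2 and colours for the groups. In Tau replicate 2 the mean is 1.61 for the indirect pathway genes, 0.58 for the direct pathway genes and 1.14 for oligodendrocyte genes, and the cortical lists stay close to 0 in all libraries.

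The genes whose profile over the 6 libraries was closest to the mean of the members were searched for among 16369 genes with a mean of at least 1 CPM, by the root mean square difference of centred log2 CPM. The closest 6 were Ndrg1 at 0.110, Emilin2 at 0.112, Car14 at 0.122, D7Ertd443e at 0.131, Cpm at 0.140 and Cplx3 at 0.145, against a median of 0.493 over all genes compared. The members themselves were at 0.152 for Ppp1r1b to 0.476 for Adora2a. Ndrg1 was at 41.1 and 32.8 CPM in WT-labelled, 40.6 and 77.3 CPM in Tau and 35.2 and 41.0 CPM in UNC0642 libraries. These genes were chosen for this profile, so a high level in Tau replicate 2 follows from the choice.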

How the data were processed

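PFC RNA was sequenced from 6 libraries in 3 groups. According to the study's methods and labels, strand-specific libraries of RNA depleted of ribosomal RNA were trimmed with Cutadapt, aligned with TopHat2 (mm10, per the processing notes) and counted with featureCounts. What the authors deposited are raw counts for each gene. The strand setting of the counting was not given in the sources used here.

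Libraries were joined by gene symbol. Dates stood in place of 26 gene names in WT replicate 2 and Tau replicate 2, none of them a member, and these rows were joined by position. Genes were filtered by filterByExpr of edgeR 4.0.16 (minimum count 10, minimum total 15), scaled by TMM (factors 0.966 to 1.04) and fitted with the quasi-likelihood model and a mean per group in R 4.3.3, with 3 residual degrees of freedom and a biological coefficient of variation of 12.3%. Benjamini-Hochberg adjustment covered all 20409 genes, and SE is the log2 fold change divided by the square root of its F statistic. Log2 CPM used a prior count of 2. The p-values weigh a group difference against a spread estimated from the 2 libraries of every group together, moderated over all genes.

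Coordinates and exon lengths came from GENCODE M21 and promoters from RefSeq. The members, lists and tests were chosen with earlier results of these data known. Genes named were the 9 members, genes of the striatal list called in a comparison (at most the 10 with the smallest p, of which 1 is not reported here), the 6 nearest profiles, and Prnp, Mapt, Xist and Ddx3y as checks. Chat, Nkx2-1, Th, Calb2, Aqp1 and Slc5a7 from the marker lists were named after their values were seen. So were Tmem158, Actn2, Isl1 and Six3 from the striatal list. Alternatives were DESeq2 1.42.0 size factors or library size in place of TMM, other filters, a replicate block, fits restricted to the groups compared, a term for sex-linked expression, the DESeq2 Wald test, limma-voom (limma 3.58.1), edgeR's likelihood ratio test, other thresholds, and fits without each library. Python 3.11.15 with pandas 2.3.3, numpy 2.4.6 and matplotlib 3.10.9 served for tables and figures.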

Additional observations from a re-analysis of the deposited data

How the results depend on the processing

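In Tau relative to WT-labelled mice, where 8 members were called with a median log2 fold change of 0.78, the count was 5 with a replicate block, 5 by the DESeq2 Wald test, 3 by limma-voom and 0 with adjusted p under 0.05. In the same order these settings called 692, 578, 762 and 25 of all 20409 genes higher. Over the fits without each library it ran from 1 (without Tau replicate 2) to 8 and the median from 0.17 to 1.06. After UNC0642, where 8 were called with a median of -0.63, the count was 3 with a term for sex-linked expression, 4 by limma-voom, 4 at a fold of at least 1.5 and 0 with adjusted p. Of all 20409 genes 817, 735, 312 and 2 were called lower in these settings. Over the fits without each library it ran from 1 (without Tau replicate 2) to 9 and the median from -1.05 to -0.28. Between UNC0642-treated and WT-labelled mice, where 0 were called, Penk made the count 1 without a filter on low counts and 1 in the fit of these groups alone, and over the fits without each library the count was 0 to 1 and the median -0.13 to 0.13. Over all genes 1672 of 34535 were called lower without that filter, and 1160 of 20409 in the fit of these groups alone. Some small values of that comparison turned their sign. With the sex-linked term Pdyn was at 0.047 and Rgs9 at -0.29, and over the fits without each library Tac1 ran from -0.0043 to 0.46, Pdyn from -0.29 to 0.045, Drd2 from -0.45 to 0.17, Ppp1r1b from -0.14 to 0.10 and Rgs9 from -0.29 to 0.54. The cause was not tested beyond the libraries and genes each fit leaves out. The replicate numbers did not pair the libraries, since the differences between replicates correlated at -0.034, -0.021 and -0.0033 between groups, and the block moved the other counts from 8 to 8 and from 0 to 0. Over all genes, 2003, 1569 and 1932 were called in the 3 comparisons. The DESeq2 Wald test called 1322 in the first, a fold of at least 1.5 left 1130, 855 and 784, and adjusted p left 32, 4 and 44. With library size in place of TMM the split of higher and lower calls was 415 and 1742 (759 and 1244 with TMM) in the first comparison, 900 and 635 (762 and 807) in the second and 536 and 1479 (770 and 1162) in the third, and 7, 8 and 0 members were called. The fewest counts among the members were 16 for Drd2 and 20 for Adora2a in a library.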

Other observations

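Other marker lists set Tau replicate 2 less apart, and some held a gene that set the library labelled WT replicate 1 apart. Th, which encodes the enzyme that limits dopamine synthesis, was at 27.6 CPM in that library and at 1.07 to 2.65 CPM in the others. Calb2, a calcium-binding protein gene, was at 68.8 CPM there and at 9.62 to 12.8 CPM elsewhere, and the water channel gene Aqp1 was at 9.93 CPM there and at 0.265 to 0.710 CPM elsewhere. The lists of striatal interneurons (29.96 CPM in that library, 2.49 to 5.55 in the others), of thalamus and septum (140.0 CPM, 70.4 to 88.2 in the others) and of choroid plexus (13.4 CPM, 3.98 to 6.41 in the others) had their highest sums in it. These lists hold Th, Calb2 and Aqp1 in this order. With that gene set aside, the library did not have the highest sum in any of them.

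Of the 6 striatal interneuron genes 3 were tested, and in edgeR 1, Slc5a7, was called higher in Tau than in WT-labelled mice and lower after UNC0642 treatment, at 1.70 and 1.41 CPM in WT-labelled, 2.43 and 3.21 CPM in Tau and 0.829 and 1.06 CPM in UNC0642 libraries, while 1, Th, was called lower in Tau mice. Without the library labelled WT replicate 1 neither was called in Tau mice. The 4 claustrum and endopiriform genes summed to 61.0 to 70.4 CPM, with 1 called higher in Tau mice, with or without the library labelled WT replicate 1, and 0 after UNC0642. Of the 7 thalamus and septum genes 1 was called lower in Tau mice and 0 after UNC0642, and of the 4 choroid plexus genes tested 1 was called lower in Tau mice and 0 after UNC0642. With WT replicate 1 left out neither list had a gene called lower in Tau mice and 1 choroid plexus gene was called higher, and the log2 fold change in Tau mice went from -1.84 to 0.085 for Calb2 and from -3.54 to -0.46 for Aqp1. Leaving out Tau replicate 2 instead gave 2 thalamus and septum genes called lower after UNC0642. Mapt, the mouse tau gene and a further check of the labels, was at 576 and 449 CPM in the WT-labelled libraries. It was at 613 and 589 CPM in the Tau and at 571 and 614 CPM in the UNC0642 libraries. As for Prnp, the library labelled WT replicate 2 was the lowest of the 6.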
